A study of Drosophila melanogaster with 20 samples.

Results

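The genes described here encode the proteins of the mitochondrial ribosome. They are the rows of a neuRNA-seq count table whose FlyBase symbol begins with *mRpL* or *mRpS*, which gave 71 of 17659 genes. By symbol, 47 are named for the large subunit (*mRpL*) and 24 for the small subunit (*mRpS*), and subunits are assigned in this way throughout. The libraries come from Kc167 cells (Kc), an established *Drosophila* line made from female embryos and labelled with the dorsal closure stage. Cells were treated with dsRNA against GAF, the GAGA-binding transcription factor encoded by *Trl*, or with dsRNA against the nucleosome remodeler Mi-2. Newly made RNA was labelled with the uridine analog EU (0.2 mM for 1 h), captured and read as 50 bp single reads, so that a count follows recent transcription of a gene more than its store of mature mRNA. Replicates 2 and 3 of the GAF knockdown and replicates 1 and 2 of the Mi-2 knockdown were analysed, and the 2 knockdowns shared the cell line and the labelling. The series also lists a replicate 1 of the GAF knockdown, which has no column of counts and was not analysed. No mock-treated library was analysed here, so a difference between the knockdowns cannot be assigned to either of them. No label says whether the libraries of a group came from separate cultures, so p-values measure only the spread between these libraries, which may be technical.

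Mitochondria carry their own ribosome, which translates the few proteins encoded by mitochondrial DNA, most of them membrane subunits of the respiratory chain and the ATP synthase. Its RNAs are made inside the organelle, but all of its proteins are encoded in the nucleus, made by cytosolic ribosomes and imported. Members with low numbers in their symbols are named after bacterial ribosomal proteins, and those with high numbers were first described in mitochondria.

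The libraries held between 3966515 and 12563919 counts on genes, the largest being GAF knockdown replicate 3 and the smallest Mi-2 knockdown replicate 1. Values are given as CPM, a gene's counts scaled to the library total with TMM factors. Among the targeted genes, *Trl* had 6.97 and 10.9 CPM in the GAF knockdown libraries, against 13.4 and 12.3 CPM in the Mi-2 knockdown libraries. Its log2 fold change of -0.51 (GAF knockdown over Mi-2 knockdown, as throughout) did not pass the test (adjusted p = 0.566, edgeR). *Mi-2* had 431 and 436 CPM in the GAF knockdown libraries, against 300 and 311 CPM in the Mi-2 knockdown libraries, a log2 fold change of 0.50 (adjusted p = 0.0109, edgeR). Without GAF knockdown replicate 2 or 3 it was 0.52 or 0.49 and not called. Of 13 hemocyte markers, which Kc cells are known to express, 12 and 13 were above 3 counts in the GAF knockdown libraries, against 11 and 12 in the Mi-2 knockdown libraries. The hemocyte transcription factor *srp* was at 1860 to 2033 CPM, and *NimC1* was at or near 0. In all, 8 markers of other cell types summed to 88.1 and 63.9 CPM in the GAF knockdown libraries, against 85.5 and 106 CPM in the Mi-2 knockdown libraries. Most of this came from the neuronal marker *elav*, at 49.8 to 89.0 CPM. The hemocyte markers summed to 12645 and 12107 CPM in the GAF knockdown libraries, against 10648 and 11254 CPM in the Mi-2 knockdown libraries. Of the 12 tested, 5 were called higher in the GAF knockdown and 0 lower, against 3.40% higher and 6.06% lower over all genes tested. These markers are highly counted, with a median of 654 CPM, against 41.6 CPM over all genes tested. Their part in the results was not tested. Mi-2 knockdown replicate 1 stood apart at *kl-2*, a Y-linked gene in a line labelled female. It had 187 CPM there, against 0.324 to 2.89 CPM in the other libraries. Some other Y-linked genes were counted in every library, such as *kl-5* at 6.76 to 17.4 CPM. *Ppr-Y* had 7.30 and 5.35 CPM in the GAF knockdown libraries, against 14.6 and 13.9 CPM in the Mi-2 knockdown libraries. *WDY* overlapped, at 3.41 to 14.2 CPM. In a list of male dosage and Y-linked genes, all 7 tested had negative log2 fold changes (median -0.94). The 1 called was *kl-2*, whose high level was in Mi-2 knockdown replicate 1 alone. The cause was not tested. The part of Mi-2 knockdown replicate 1 in any result below was not tested beyond leaving it out.

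The members lie on all the large chromosome arms, with 21 on 3R, 15 on 3L, 12 on 2R, 12 on 2L and 11 on X, and 37 are on the plus strand and 34 on the minus strand. They are short genes: the median gene body of those tested was 861 bp, against 2874 bp for all genes tested. The shortest was *mRpL34* with 390 bp, and all but 1 were at most 2242 bp. The exception was *mRpS9*, whose gene body spans 13391 bp of chromosome 3R (dm6, 7889277 to 7902667) with 1293 bp of exons. Of the 71, 40 overlap a gene on the opposite strand, whose reads the strand-specific counting keeps apart, and 3 overlap a gene on their own strand. *mRpS14* shares 30 bp with *CG32533* in this way, and the other two are the members that could not be measured.

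Counts were 0 in all 4 libraries for *mRpL13* and *mRpL53*. *mRpL13* (2L, 18858028 to 18859248) lies wholly within *CG10602*, and *mRpL53* (2R, 13954195 to 13955664) lies wholly within *CG33155*, in both cases on the same strand. This kind of counting drops reads shared by genes of the same strand, and neither gene has a base of its own in the annotation used here. Their 0 counts therefore say nothing of their transcription, and neither passed the filter on low counts. The other 69 members were tested, 45 of the large and 24 of the small subunit. The filter needs only enough counts in one group, but every tested member had counts in all 4 libraries.

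Levels were compared between genes as mean CPM per kb of gene body over both knockdowns. A gene body includes introns, whose share differs between genes, and levels per kb of exon were not computed. Comparisons between genes or lists therefore hold for gene bodies only. The median of the 69 tested members was 17.0 CPM per kb, close to the 15.4 CPM per kb of all genes tested and the 21.3 CPM per kb of the nuclear genes for oxidative phosphorylation. Cytosolic ribosomal protein genes had a median of 125 CPM per kb. Large-subunit members had a median of 16.7 CPM per kb and small-subunit members 18.8 CPM per kb. The middle 50% of the members lay between 12.1 and 22.8 CPM per kb, although their products are built into the same particle, and the extremes differed 15.6-fold.

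*mRpS30* had the highest level per length. Its mammalian counterpart is found in the large subunit despite the name. It was at 61.3 CPM per kb in the GAF knockdown and 60.0 CPM per kb in the Mi-2 knockdown. Per library it had 129 and 146 CPM in the GAF knockdown, against 126 and 143 CPM in the Mi-2 knockdown, so the spread within each group exceeded the difference between them. *mRpL30* followed with 41.4 CPM per kb in the GAF knockdown and 42.8 CPM per kb in the Mi-2 knockdown. *mRpL37*, a member of the mitochondrial number series, came next with 32.2 CPM per kb in the GAF knockdown and 36.3 CPM per kb in the Mi-2 knockdown. In CPM, *mRpL30* had 31.0 and 33.3 in the GAF knockdown libraries, against 40.1 and 26.4 in the Mi-2 knockdown libraries. *mRpL37* had 45.3 and 53.2 CPM in the GAF knockdown libraries, against 65.6 and 45.5 CPM in the Mi-2 knockdown libraries. Both sets of values overlapped between the groups, as at *mRpS30*, and the log2 fold changes of the 3 genes were between -0.17 and 0.03.

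At the low end, *mRpL27*, whose bacterial counterpart reaches the peptidyl transferase centre, was at 3.73 CPM per kb in the GAF knockdown and 4.08 CPM per kb in the Mi-2 knockdown. Its reads numbered 15 and 68 in the GAF knockdown libraries, against 18 and 22 in the Mi-2 knockdown libraries. *mRpL48* was at 4.44 CPM per kb in the GAF knockdown and 5.50 CPM per kb in the Mi-2 knockdown. With 24 and 64 counts in the GAF knockdown libraries, against 28 and 22 counts in the Mi-2 knockdown libraries, it overlapped between the groups in CPM, as did *mRpL27*. *mRpL34* had the fewest counts of all tested members, 27 and 19 in the GAF knockdown libraries, against 12 and 1 in the Mi-2 knockdown libraries. Its level was 7.53 CPM per kb in the GAF knockdown and 4.11 CPM per kb in the Mi-2 knockdown. The long gene *mRpS9* came next to these at 5.85 CPM per kb over both groups, although at 75.1 to 84.5 CPM its total was second to that of *mRpS30*. Its place at the low end depends on dividing by the whole gene body of 13391 bp, of which 1293 bp are exons.

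**Figure D1:**
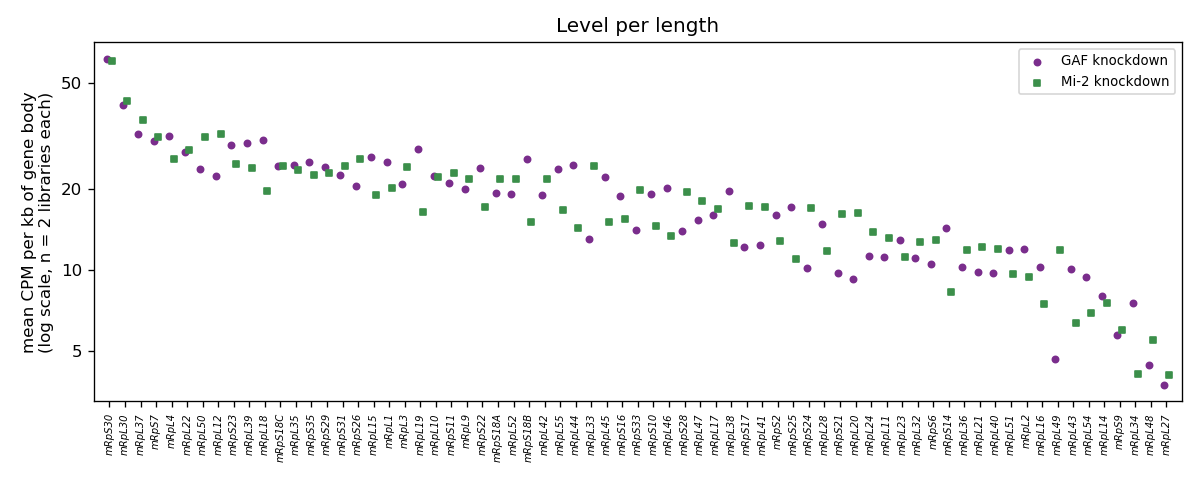
Mean CPM per kb of gene body (log scale) of the 69 tested mitochondrial ribosomal protein genes in the GAF knockdown (circles) and the Mi-2 knockdown (squares), 2 libraries each, ordered by the mean of both. *mRpS30* is highest in both knockdowns and *mRpL27* is lowest in both, and the order of neighbouring genes changes between the knockdowns at many places.

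As a group, the members took nearly the same share of each library. Their summed level was 1367 CPM in GAF knockdown replicate 2 and 1466 CPM in replicate 3, against 1368 CPM in Mi-2 knockdown replicate 1 and 1346 CPM in replicate 2. The means were 1417 ± 69.9 CPM in the GAF knockdown and 1357 ± 15.4 CPM in the Mi-2 knockdown (SD, n = 2 each). The values overlapped between the groups, and with 2 libraries in each an exact two-sided permutation test of a single value cannot give a p under 0.333. The large-subunit genes summed to 807 ± 28.3 CPM in the GAF knockdown and 761 ± 16.5 CPM in the Mi-2 knockdown. The small-subunit genes summed to 609 ± 41.6 CPM in the GAF knockdown and 597 ± 1.09 CPM in the Mi-2 knockdown (SD, n = 2 each). The ratio of the large-subunit to the small-subunit sum was 1.32 in the GAF knockdown and 1.28 in the Mi-2 knockdown. These sums follow the symbols. The small-subunit sum includes *mRpS30* and *mRpS18A*, whose mammalian counterparts are in the large subunit. *mRpS30* had a mean of 138 CPM in the GAF knockdown and 135 CPM in the Mi-2 knockdown, and *mRpS18A* 13.1 and 14.8 CPM. The ratio is therefore one of symbols and not of subunit composition.

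Single genes varied more than the sum. On the log2(CPM + 0.5) scale, the members' deviations from their own mean over the 4 libraries had a median of -0.04 in GAF knockdown replicate 2 and 0.11 in replicate 3, against 0.05 in Mi-2 knockdown replicate 1 and -0.06 in replicate 2. The SD of these deviations was 0.45 and 0.23 in the GAF knockdown libraries, against 0.45 and 0.35 in the Mi-2 knockdown libraries. The spread was smallest in the library with the most counts, GAF knockdown replicate 3, where a tested member had a median of 199 counts. In the other libraries that median was 96 counts for GAF knockdown replicate 2, against 64 and 84 counts for Mi-2 knockdown replicates 1 and 2. The median absolute gap between the 2 libraries of a group was 0.30 in the GAF knockdown and 0.41 in the Mi-2 knockdown on the log2 scale, against a median absolute log2 fold change between the groups of 0.31. Over all genes tested these medians were smaller, with gaps of 0.19 in the GAF knockdown and 0.26 in the Mi-2 knockdown and an absolute log2 fold change of 0.27. A gap compares single libraries on the log2(CPM + 0.5) scale, while the fold change is the edgeR estimate between groups of 2 libraries. Their sizes are therefore not directly comparable.

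**Figure D2:**
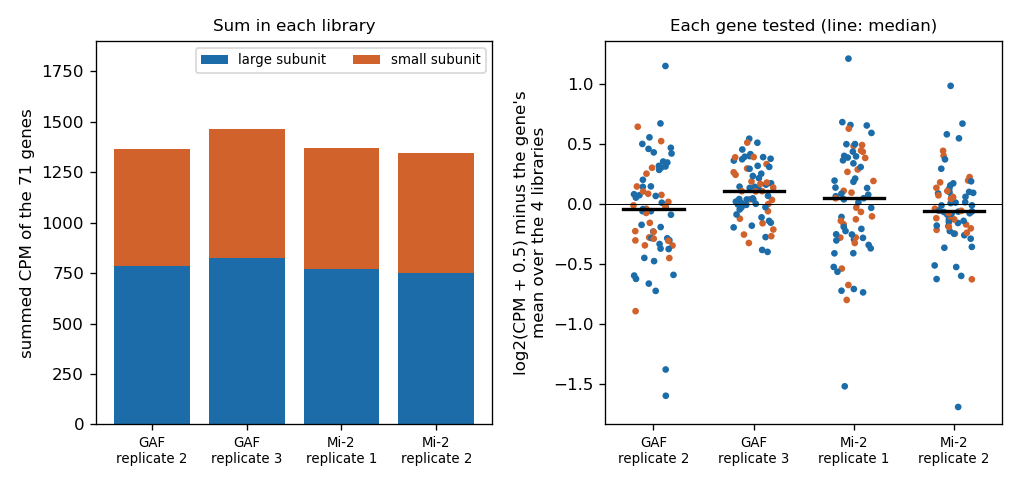
Left, summed CPM of the 71 mitochondrial ribosomal protein genes in each library, split by subunit. Right, the deviation of each of the 69 tested genes from its own mean over the 4 libraries on the log2(CPM + 0.5) scale, with a line at each library's median; the sums lie between 1346 and 1466 CPM, while single genes scatter around medians between -0.06 and 0.11, most tightly in GAF knockdown replicate 3.

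No member passed the test between the knockdowns. The quasi-likelihood test of edgeR was adjusted over 7826 genes (Benjamini-Hochberg) and at a threshold of 0.1 called 0 of 69 members higher and 0 lower. Over all genes tested the background was 9.46%, with 3.40% called higher and 6.06% called lower. DESeq2 also called 0 higher and 0 lower, against a background of 11.3%. At an unadjusted p under 0.05, edgeR gave 4 members, all higher in the GAF knockdown, against a background of 20.1% (8.92% higher and 11.2% lower). The members' median log2 fold change was -0.02, with 34 positive and 35 negative, and it was -0.02 in each subunit and -0.00 over all genes tested. Libraries of the groups did not overlap for 27 members, 17 higher and 10 lower in the GAF knockdown, where the background was 50.8% (24.8% higher and 26.0% lower). The 95% interval of the log2 fold change had a median half-width of 0.79 for members and lay wholly between -1 and 1 for 24 of the 69.

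The background is lower among other genes within the members' range of length and level. Of 2696 other tested genes with a gene body of 390 to 2242 bp (the members' range without *mRpS9*) and a mean CPM within the members' range, 34 were called higher and 67 lower, which is 3.75%. At an unadjusted p under 0.05 (edgeR), 116 of these 2696 genes were higher and 184 lower. Libraries of the groups did not overlap for 540 higher and 604 lower of the 2696. These shares too are smaller than over all genes tested, in both directions. Their difference from the members' shares was not tested. Only the range is matched: the medians of these other genes were 1423 bp and 20.9 CPM, against 861 bp and 14.4 CPM in the members. This comparison was added after the first results were seen. Without GAF knockdown replicate 2 or replicate 3, 0 members were called, against backgrounds of 2.33% and 2.27%. Leaving out a Mi-2 knockdown library changed the count of 0, with the lone library then taken to vary as the others do. Without Mi-2 knockdown replicate 1, *mRpS18B* and *mRpL44* were called, both higher, against a background of 4.73% called higher and 12.0% called in all. Without replicate 2, 7 members were called higher and 2 lower against a background of 12.0% and 9.81%, or 21.8% in all.

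**Figure D3:**
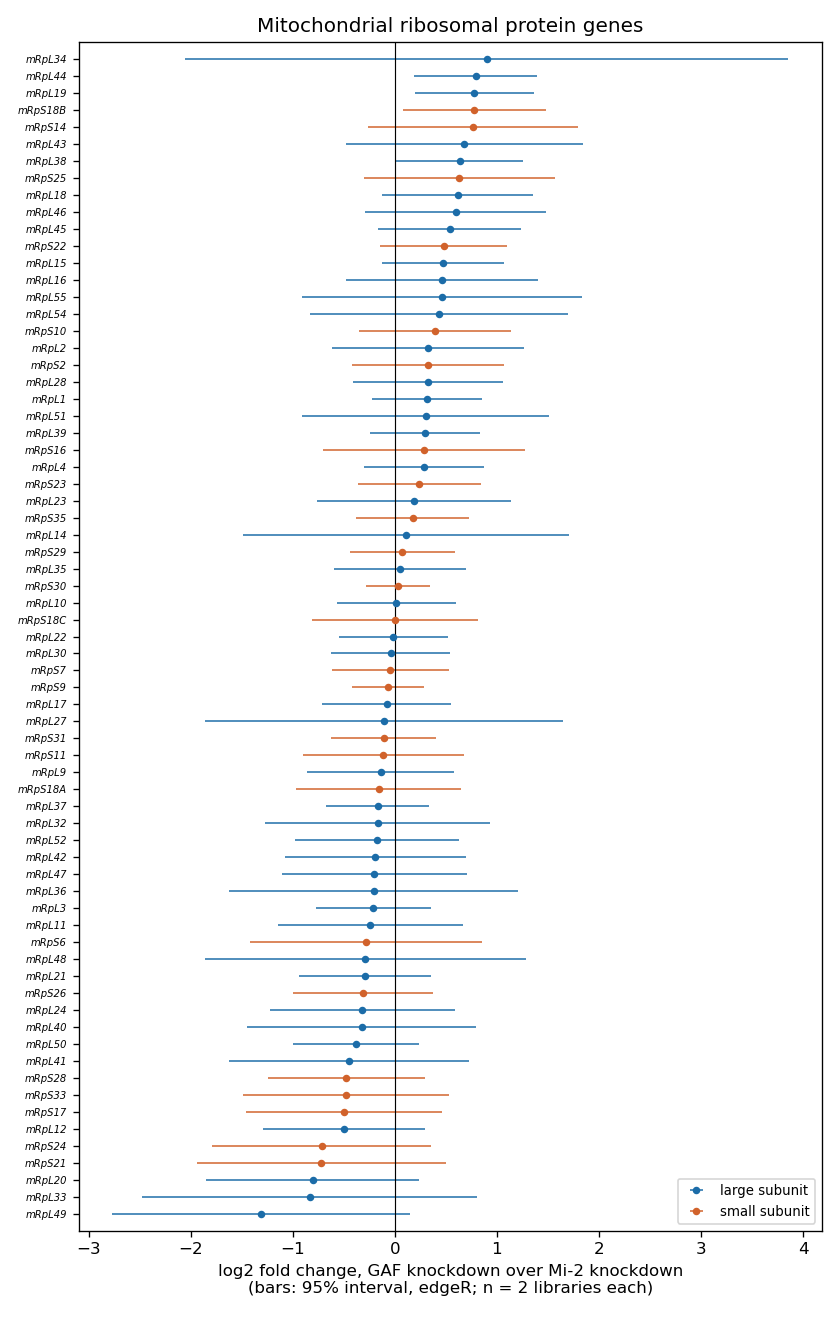
Log2 fold change (GAF knockdown over Mi-2 knockdown) for the 69 tested members, with 95% intervals from edgeR (2 libraries each) and colour by subunit. The values run between -1.31 (*mRpL49*, apart from the next at -0.83) and 0.90 (*mRpL34*), those of the small subunit between -0.72 and 0.78, and 4 intervals do not reach 0.

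The highest fold changes belonged to members of both subunits. *mRpL44*, whose human counterpart has an RNase III-like domain, had 30.5 and 27.6 CPM in the GAF knockdown libraries, against 18.4 and 15.2 CPM in the Mi-2 knockdown libraries. The groups did not overlap, and the log2 fold change was 0.79 (standard error 0.27, adjusted p = 0.130, edgeR). *mRpL19*, whose bacterial counterpart lies at the interface between the subunits, had 29.4 and 32.3 CPM in the GAF knockdown libraries, against 16.1 and 19.7 CPM in the Mi-2 knockdown libraries. Here too both GAF knockdown libraries were above both Mi-2 knockdown libraries, with a log2 fold change of 0.78 (standard error 0.26, adjusted p = 0.126, edgeR). These adjusted p-values were the lowest of any member and missed the threshold. Thinning all libraries to the size of the smallest made *mRpL44* the only member called (adjusted p = 0.0587, background 3.97% higher and 10.9% in all), and leaving out Mi-2 knockdown replicate 1 gave it an adjusted p of 0.0565 (edgeR). Leaving out Mi-2 knockdown replicate 2 gave *mRpL19* an adjusted p of 0.0358 (edgeR).

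*mRpS18B* is 1 of 3 members named after the bacterial protein S18. It had 26.3 and 21.5 CPM in the GAF knockdown libraries, against 16.4 and 11.6 CPM in the Mi-2 knockdown libraries, with no overlap. Its log2 fold change was 0.78 (standard error 0.31, adjusted p = 0.195, edgeR), and the adjusted p was 0.0572 without Mi-2 knockdown replicate 1. The 3 genes were not alike in this comparison. *mRpS18A*, whose mammalian counterpart is a large-subunit protein, had a log2 fold change of -0.16, and *mRpS18C* had 0.00, with overlapping libraries for both. The differences among the 3 were not tested.

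*mRpS14*, named after a protein of the small subunit's head in bacteria, had 14.6 and 9.91 CPM in the GAF knockdown libraries, against 5.55 and 8.66 CPM in the Mi-2 knockdown libraries. Its libraries did not overlap either, and the log2 fold change was 0.76 (standard error 0.46, adjusted p = 0.411, edgeR), and leaving out single libraries gave 0.47 to 1.14. *mRpL34* had the highest value of all, 0.90, but rested on few reads, with 4.38 and 1.49 CPM in the GAF knockdown libraries, against 3.03 and 0.181 CPM in the Mi-2 knockdown libraries. Its standard error was 1.33 and its adjusted p 0.774 (edgeR), the libraries overlapped, and leaving out single libraries moved the log2 fold change between -0.07 and 3.89. *mRpL38*, chosen after its values were seen because it completes the 4 members with an unadjusted p under 0.05, encodes a protein of the mitochondrial number series. It had 37.0 and 28.8 CPM in the GAF knockdown libraries, against 17.4 and 24.5 CPM in the Mi-2 knockdown libraries, with a log2 fold change of 0.64 and an adjusted p of 0.239 (edgeR). The libraries did not overlap, and without Mi-2 knockdown replicate 2 the adjusted p was 0.0354.

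At the other end, *mRpL49*, a protein with no bacterial counterpart, had 1.95 and 5.90 CPM in the GAF knockdown libraries, against 7.82 and 12.1 CPM in the Mi-2 knockdown libraries. Both GAF knockdown libraries were below both Mi-2 knockdown libraries, and the log2 fold change of -1.31 was the most negative of any member (standard error 0.66, adjusted p = 0.307, edgeR). It rested on 12 and 75 counts in the GAF knockdown, against 31 and 67 counts in the Mi-2 knockdown, and was -0.76 without GAF knockdown replicate 2 and -2.35 without replicate 3. *mRpL20*, whose *Escherichia coli* counterpart is needed early in assembly of the large subunit, had 6.16 and 7.16 CPM in the GAF knockdown libraries, against 14.1 and 9.39 CPM in the Mi-2 knockdown libraries. Its log2 fold change was -0.81 (standard error 0.47, adjusted p = 0.390, edgeR), with no overlap, and -0.49 without Mi-2 knockdown replicate 1.

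The small-subunit genes *mRpS21* and *mRpS24* had the lowest log2 fold changes within their subunit, -0.72 for *mRpS21* and -0.71 for *mRpS24*. *mRpS21*, named after one of the smallest bacterial ribosomal proteins, had 5.19 and 5.27 CPM in the GAF knockdown libraries, against 9.34 and 7.94 CPM in the Mi-2 knockdown libraries (adjusted p = 0.532, edgeR). *mRpS24*, whose human counterpart corresponds to bacterial S3, had 4.70 and 9.91 CPM in the GAF knockdown libraries, against 12.1 and 12.3 CPM in the Mi-2 knockdown libraries (adjusted p = 0.468, edgeR). Neither overlapped between the groups, but the log2 fold change of *mRpS24* was -0.30 without GAF knockdown replicate 2 and -1.38 without replicate 3. *mRpL33* overlapped, with 1.95 and 10.3 CPM in the GAF knockdown libraries, against 16.7 and 6.14 CPM in the Mi-2 knockdown libraries. Its log2 fold change was -0.83 (adjusted p = 0.595, edgeR), and it was 0.05 without Mi-2 knockdown replicate 1 and -1.37 (adjusted p = 0.0571) without replicate 2.

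Some members turned on 1 library. *mRpL55*, for example, was counted 82 and 140 times in the GAF knockdown libraries, against 11 and 80 times in the Mi-2 knockdown libraries. Its level was 12.2 ± 1.62 CPM in the GAF knockdown and 8.61 ± 8.25 CPM in the Mi-2 knockdown (SD, n = 2 each), and the Mi-2 knockdown libraries, with 2.78 and 14.4 CPM, lay on both sides of the GAF knockdown. Its log2 fold change was 0.46, and leaving out single Mi-2 knockdown libraries gave -0.25 without replicate 1 and 2.13 without replicate 2. *mRpL12*, which forms the stalk that recruits translation factors, had 12.8 and 22.6 CPM in the GAF knockdown libraries, against 31.3 and 19.7 CPM in the Mi-2 knockdown libraries. It was called lower, with a log2 fold change of -0.78, only in the fit where Mi-2 knockdown replicate 1 stood alone for its group. *mRpL45*, whose human counterpart sits at the tunnel exit facing the inner membrane, had 30.7 and 28.5 CPM in the GAF knockdown libraries, against 14.1 and 26.2 CPM in the Mi-2 knockdown libraries, and was called higher in that same fit. These 3 genes were chosen after their values were seen.

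**Figure D4:**
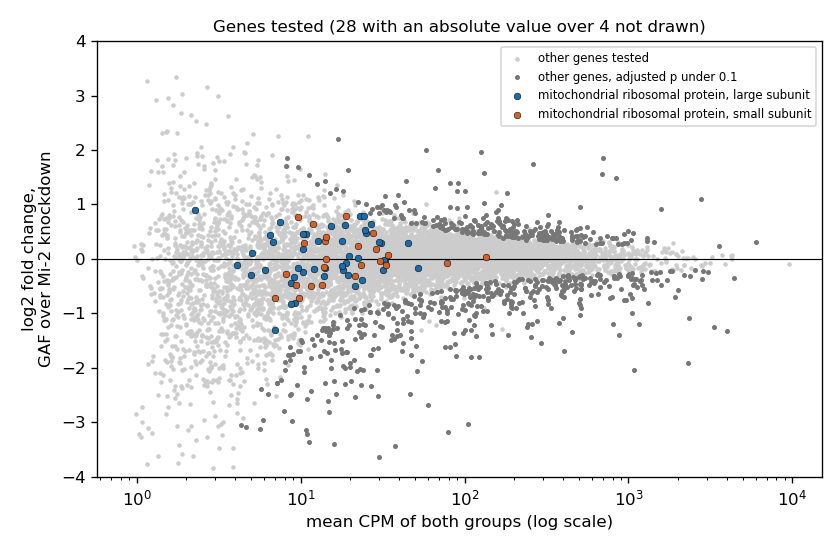
Log2 fold change (GAF knockdown over Mi-2 knockdown) against mean CPM of both groups (log scale) for the genes tested, except 28 with an absolute log2 fold change over 4, with genes at an adjusted p under 0.1 in dark grey and members in colour by subunit. The members lie among the light grey points, the middle 50% of them between 9.68 and 24.4 mean CPM, where calls among other genes have larger fold changes than at higher CPM.

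Median fold changes rose with the length of the gene body, in the members and in other genes, and so did median CPM. The 22 members of up to 800 bp had a median log2 fold change of -0.18, the 27 members between 809 and 1100 bp had 0.02, and the 20 longer ones had 0.12. Among other tested genes in the members' length range, without *mRpS9*, the medians were -0.19 for 361 genes, -0.08 for 487 genes and 0.00 for 2122 genes in the same order. The short members also differed between libraries of one knockdown, with a median of 0.47 on the log2 scale for Mi-2 knockdown replicate 1 over replicate 2, and of -0.26 for GAF knockdown replicate 2 over replicate 3. Other genes of up to 800 bp had medians of 0.10 and -0.10 in these ratios. Across the 69 members, Spearman's rho between fold change and length was 0.29, and it was 0.09 across 2970 other genes of these lengths. Between fold change and mean CPM, rho was 0.21 across the members and 0.14 across those other genes. Median CPM by length class was 9.58, 15.2 and 28.3 in the members. In other genes it was 8.03, 15.1 and 25.6. Length and level were therefore not told apart. The genes share the same 4 libraries and are not independent replicates. Removing a length trend from each library left 0 members called and a median of 0.04, but 0 were called before this step too. It therefore cannot show whether gene length had a part in the members' fold changes, which was not tested.

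**Figure D5:**
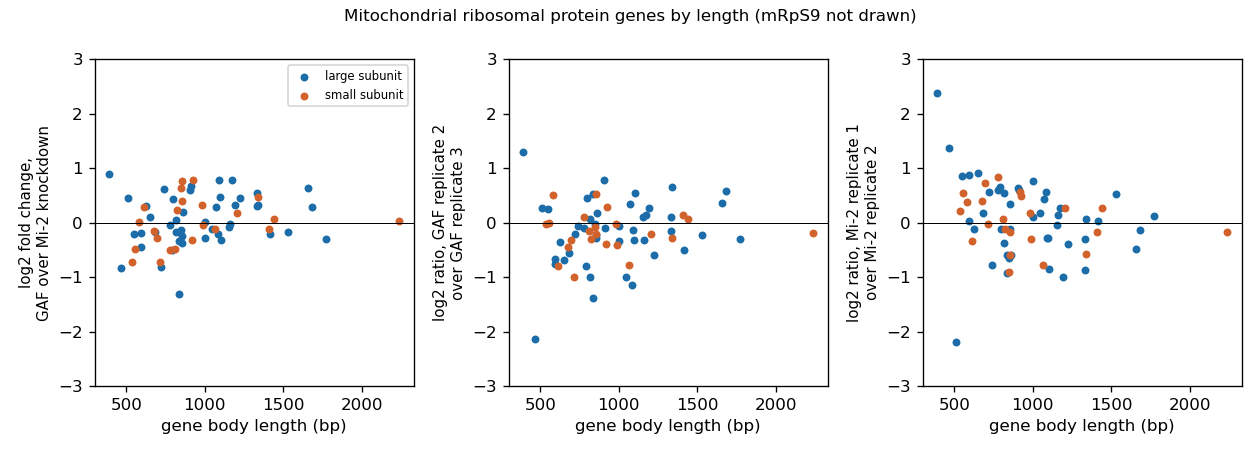
Log2 fold change between the knockdowns (left, GAF over Mi-2), GAF knockdown replicate 2 over replicate 3 (middle) and Mi-2 knockdown replicate 1 over replicate 2 (right) against gene body length for 68 tested members (*mRpS9*, 13391 bp, not drawn), by subunit. Genes of up to 800 bp have medians of -0.18, -0.26 and 0.47 in the 3 panels, and they scatter more widely in the middle and right panels, which compare single libraries, than in the left one, which compares groups of libraries.

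Other features of the genes split the members only slightly. By chromosome arm, the median log2 fold change was 0.24 on 2L, 0.07 on 2R, -0.11 on 3L, -0.11 on 3R and 0.03 on X, over 11 to 21 tested members each. The 39 tested members that overlap an antisense gene had a median of 0.05 and the 30 without one had -0.11. The 40 tested members with numbers of the bacterial series (up to 36 in the large and 21 in the small subunit) had a median of -0.03, and the 29 of the mitochondrial series had 0.03. None of these splits was tested, and each median lies well within the spread of the members.

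Both mitoribosome genes under other symbols were also without a call. *tko*, which encodes the counterpart of bacterial S12 and is known for its bang-sensitive mutants, had 13.1 and 16.4 CPM in the GAF knockdown libraries, against 11.1 and 21.1 CPM in the Mi-2 knockdown libraries. *bonsai*, the counterpart of S15, had 18.7 and 17.3 CPM in the GAF knockdown libraries, against 19.2 and 13.4 CPM in the Mi-2 knockdown libraries. The libraries of both genes overlapped, and the log2 fold changes were -0.13 for *tko* (adjusted p = 0.893, edgeR) and 0.15 for *bonsai* (adjusted p = 0.853, edgeR).

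The wider machinery of mitochondrial gene expression gave few calls. Of 8 tested translation factor genes, 16 genes for mitochondrial aminoacyl-tRNA synthetases and related enzymes, and 9 genes for transcription and DNA maintenance in the organelle, edgeR called 0 in either direction. At an unadjusted p under 0.05 the translation factors had 1 member, higher in the GAF knockdown, and the other two lists had 0. The medians of these lists were -0.06, -0.06 and 0.10 on the log2 scale. Over all genes tested, edgeR called 3.40% higher and 6.06% lower. Of 69 tested nuclear genes for oxidative phosphorylation, whose complexes contain the mitoribosome's products, 0 were called higher and 1 lower, with a median of -0.00. The call was *ND-15*, a subunit gene of complex I, with 80.1 and 76.0 CPM in the GAF knockdown libraries, against 140 and 142 CPM in the Mi-2 knockdown libraries. Its log2 fold change was -0.85 (adjusted p = 0.00567, edgeR), and the adjusted p was 0.129 without GAF knockdown replicate 3. Its annotated gene body spans 41305 bp, and which transcripts its counts come from was not tested.

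Both mitochondrial chaperone genes with a call were higher in the GAF knockdown, of 9 chaperone and protease genes tested. Over all genes tested, 3.40% were called higher and 6.06% lower. The list is highly counted, with a median of 105 CPM, against 41.6 CPM over all genes tested, and the part of this in the calls was not tested. *Hsc70-5*, the mitochondrial Hsp70, had 472 and 481 CPM in the GAF knockdown libraries, against 313 and 349 CPM in the Mi-2 knockdown libraries, a log2 fold change of 0.53 (adjusted p = 0.0108, edgeR). *Hsp60A*, the mitochondrial chaperonin, had 528 and 557 CPM in the GAF knockdown libraries, against 422 and 439 CPM in the Mi-2 knockdown libraries, a log2 fold change of 0.33 (adjusted p = 0.0560, edgeR). Without either of the GAF knockdown libraries neither gene was called, with adjusted p-values up to 0.184 for *Hsc70-5* and 0.376 for *Hsp60A* (edgeR), in fits with few calls over all genes. The log2 fold changes were then 0.54 and 0.50 for *Hsc70-5* and 0.38 and 0.29 for *Hsp60A*.

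The cytosolic ribosomal protein genes, matched by symbol, had a median log2 fold change of 0.12 over 79 tested, with 60 positive and 19 negative. Of these, 10 were called higher and 0 lower, against 3.40% higher and 6.06% lower over all genes tested. *RpL4* had 631 and 547 CPM in the GAF knockdown libraries, against 419 and 448 CPM in the Mi-2 knockdown libraries, a log2 fold change of 0.44 (adjusted p = 0.0274, edgeR). *sta*, which encodes the small-subunit protein SA, also had 0.44 (adjusted p = 0.0283, edgeR), with 388 and 426 CPM in the GAF knockdown libraries, against 299 and 301 CPM in the Mi-2 knockdown libraries. *RpL3*, *RpL7A*, *RpL8*, *RpL23A*, *RpL26* and *RpLP0-like*, the last a relative of a ribosomal protein rather than one itself, had values between 0.28 and 0.65. *RpS19b*, a paralog of *RpS19a*, was counted 23 and 37 times in the GAF knockdown libraries, against 0 and 0 times in the Mi-2 knockdown libraries, and no fold is given for it. None of the 10 was called without GAF knockdown replicate 2 or without replicate 3, where calls over all genes were also fewer. The log2 fold changes in these fits stayed positive, at 0.34 and 0.53 for *RpL4* and 0.51 and 0.36 for *sta*. *RpL3* also lost its call with the length trend removed (adjusted p = 0.140, edgeR), and *RpLP0-like* with upper-quartile scaling (adjusted p = 0.111) and without Mi-2 knockdown replicate 2 (adjusted p = 0.114). At a median of 125 CPM per kb these genes were measured with more reads than the mitochondrial members, and the difference between the lists was not tested.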

How the data were processed

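Of 20 samples in the series, 4 neuRNA-seq libraries of Kc167 cells were analysed, 2 each for the GAF and Mi-2 knockdowns. Per the study's methods, which do not name these libraries, the authors trimmed reads with cutadapt 1.10, mapped them to dm6 with HISAT2 2.0.4 and counted them with featureCounts 1.5.0-p3 on the sense strand over whole FlyBase gene bodies. The deposited values are raw counts per gene, and both deposited tables were identical. The table has 6 further columns, 3 named as mock and 3 as Dcr-2 knockdown, that match no sample's label and were not used. The remaining samples were not analysed here.

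Genes were filtered with filterByExpr, scaled by TMM (factors 0.976 to 1.01) and tested with edgeR 4.0.16 (glmQLFit, glmQLFTest, R 4.3.3), with Benjamini-Hochberg adjustment and the study's threshold of 0.1. Standard errors are the log2 fold change over the square root of F. DESeq2 1.42.0 was an alternative, with other scalings, filters, thinning to equal depth, a length correction and leaving out each library. The tests were checked on simulated data. CPM and CPM per kb were computed from the deposited counts. A count of 0 allows up to 3 counts, or 0.239 to 0.756 CPM before scaling, for counting error only.

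Symbols, positions and overlaps are those of the Ensembl release 115 annotation of dm6, later than the one the authors counted on, which matched 17464 of 17659 identifiers. It names 73 *mRpL* and *mRpS* genes, of which *mRpS5* and *mRpS34* had no row under its identifiers. Members and lists were chosen with earlier results of these data known. The genes named are all members called, the 5 with the highest and the 5 with the lowest log2 fold change, the 3 highest and 3 lowest in CPM per kb, members that failed the filter, *tko*, *bonsai*, *Trl*, *Mi-2* and called members of the related lists. Exceptions are stated where they occur. A called gene of the related lists is not reported here by name.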

Additional observations from a re-analysis of the deposited data

How the results depend on the processing

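The members' counts of 0 higher and 0 lower held with DESeq2, RLE, upper-quartile and library-size scaling, with no filter, with at least 10 counts in every library, at a threshold of 0.05 and with the length trend removed. Thinning to equal depth gave 1 higher. Leaving out single libraries gave 0 to 7 higher and 0 to 2 lower, with a median log2 fold change of -0.057 to 0.12. Over all genes, 266 were called higher and 474 lower. Without a filter 494 were higher, 128 were higher at a threshold of 0.05, and leaving out single libraries gave 32 to 998 higher and 154 to 818 lower. Values of named genes that turned sign were not called. These were *mRpL30* when thinned (0.016) and with the length trend removed (0.10), *mRpS30* with the length trend removed (-0.0047) and *mRpL27* when thinned (0.0098). Leaving out single libraries turned the sign of *mRpL33* (-2.54 to 0.045), *mRpL34* (-0.067 to 3.89), *mRpL37* (-0.40 to 0.12), *mRpL30* (-0.31 to 0.29), *mRpS30* (-0.071 to 0.14), *mRpL27* (-0.81 to 0.33), *mRpL48* (-0.64 to 0.18), *tko* (-0.50 to 0.43), *bonsai* (-0.083 to 0.43), *mRpL55* (-0.25 to 2.13), *mRpS18A* (-0.43 to 0.066), *mRpS18C* (-0.27 to 0.24) and *mRpS9* (-0.13 to 0.0052). The cause was not tested, except that a fit without a library has fewer samples. No paired analysis was possible because the groups compared share only 1 replicate number. The alternative for promoter motifs was not run, since no sequence was used here. Precision is limited by 2 libraries per group and by depth, with a median of 64 counts per member in the smallest library.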
